A study of Lactuca sativa with 20 samples.

Results

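The comparison of abscisic acid (ABA) with its ethanol vehicle took in 5 of the 20 RNA-seq libraries of a study of lettuce seedlings. Its members were set by their column labels, 3 libraries of 10 µM ABA and 2 of 0.02% ethanol, though earlier results of these data were known. It was read over all gene models of the count table. All material was whole seedlings of *Lactuca sativa*, variety Little Gem, grown on MS medium under continuous light at 22 °C for 4 days and then held in solution for 2 h. No mutant or transgene is given for any group. Other groups of the same design served as a measure of the background or as libraries that the comparison did not use. They were water (3 libraries), 10 µM CLE12p, by its name a peptide of the CLE family (3), 10 µM CLE12p with 10 µM ABA (3), 10 µM ACC, the direct precursor of ethylene (3), and 10 µM CLE12p with 10 µM ACC (3). For the last group the treatment protocol lists ABA with ACC, and the sample labels were followed here. The labels do not say whether the ABA solution itself held ethanol, nor whether libraries of a group came from separate batches of seedlings, so p-values measure the spread between these libraries, which may be technical.

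ABA is the hormone through which plants respond to drought, salt and cold and hold seeds dormant. In the pathway known from *Arabidopsis*, receptors that have bound ABA inhibit a family of protein phosphatases, which frees kinases that phosphorylate transcription factors and ion channels. Within hours, genes for protective proteins and for the pathway's own phosphatases are typically raised there, and many growth genes are lowered. Which lettuce genes below belong to these classes was not determined. The table's identifiers are not paired with names, and 0 of 37828 matched a reference gene table of 51651 genes, so no marker of tissue or pathway could be checked either. Genes are therefore described by level, size of change and behaviour across treatments, with 4 identifiers.

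Totals of the 5 libraries ran from 20636520 to 23442390 counts. Levels are given as CPM, counts scaled to a common library total, which do not allow for gene length and so compare a gene across libraries, not genes with each other. Of the 37828 gene models, 11153 had 0 counts in all 5 libraries and 23413 had enough counts for the test. Ethanol and water differed at 0 of 23413 genes in edgeR's quasi-likelihood test with Benjamini-Hochberg adjustment (0% called), with 1251 at an unadjusted p below 0.05. With DESeq2 the figures were 0 called and 1261 with an unadjusted p under that limit.

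ABA raised and lowered nearly equal numbers of genes, and 37.4% of the called changes were of 2-fold or more. Of 23413 genes tested, 1206 rose (5.15%) and 1172 fell (5.01%), together 10.2%, at an adjusted p below 0.05 in edgeR's quasi-likelihood test. The interquartile range of the change was 1.39-fold to 2.40-fold among the genes that rose and 1.44-fold to 2.86-fold among those that fell, with medians of 1.64-fold and 1.80-fold. Over all genes tested the median log2 fold change was 0.00, with an interquartile range of -0.17 to 0.18. All 1206 rising genes and 1171 of the 1172 falling genes had no overlap between the ABA and ethanol libraries, against 20.2% of all tested genes not overlapping upward and 20.6% downward, though the same libraries made the calls. The count of calls varied with the libraries and the model used. In a fit of the 5 libraries alone there were 1726 rising and 1558 falling genes, and with DESeq2 there were 1352 and 1318. Leaving out 1 ABA library at a time gave 909 to 962 and 950 to 961. Without ethanol replicate 1 there were 708 rising and 829 falling genes, and without replicate 2 there were 655 and 741. Of these, 318 and 439 without replicate 1, and 302 and 396 without replicate 2, changed by at least 2-fold, a larger part of the calls than with both libraries. With water and ethanol weighted equally as controls there were 1933 and 1831.

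With both ethanol libraries, changes under 2-fold were the more frequent. Of the 2378 called genes, 34.6% changed by under 1.5-fold, 28.0% by 1.5-fold to 2-fold, 23.6% by 2-fold to 4-fold, 7.57% by 4-fold to 8-fold and 6.22% by 8-fold or more. Rising genes were the more frequent in both lowest classes, with 460 against 362 falling genes under 1.5-fold and 354 against 312 from 1.5-fold to 2-fold. Falling genes were the more frequent in the next classes, with 321 against 241 rising genes from 2-fold to 4-fold and 105 against 75 from 4-fold to 8-fold. The class of 8-fold or more held 76 rising and 72 falling genes, or 58 and 42 with a prior count of 2 in the fit. Thus 392 genes rose by at least 2-fold and 498 fell by at least that much, which is 32.5% of the rising and 42.5% of the falling genes. This imbalance was not tested as such. Falling genes were the more frequent at 2-fold or more under every alternative run for these counts, for example 647 against 426 with water as the control and 396 against 302 without ethanol replicate 2.

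**Figure D1:**
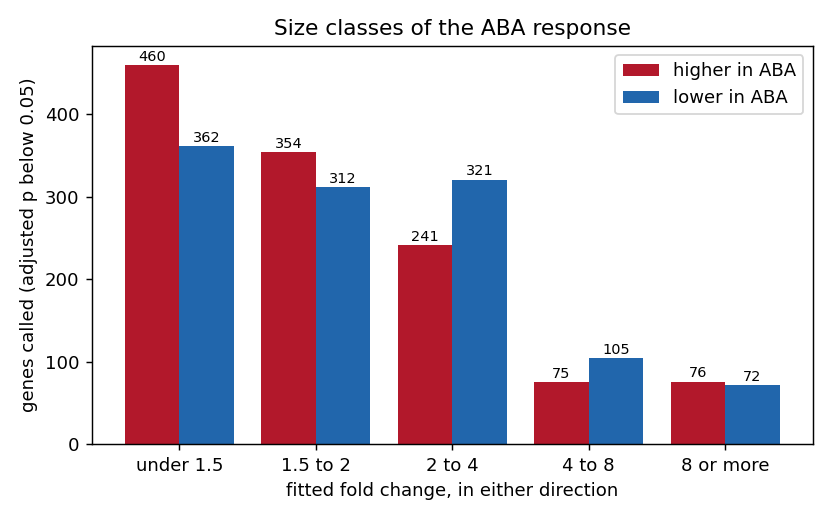
Number of genes called higher (red) or lower (blue) in ABA than in ethanol at an adjusted p below 0.05, by size class of the fitted fold change. Rising genes outnumber falling ones below 2-fold (460 and 354 against 362 and 312), and falling genes outnumber rising ones from 2-fold to 8-fold (321 and 105 against 241 and 75).

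A size class from the fitted value leaves its error aside. Tested against a change of at most 2-fold (glmTreat in edgeR, adjusted p below 0.05), 118 genes were higher (0.504% of those tested) and 153 lower (0.653%) by more than 2-fold. That is 30.1% of the rising and 30.7% of the falling genes whose fitted change was at least 2-fold. The smallest fitted changes that passed were 2.75-fold upward and 2.62-fold downward, and the medians of those that passed were 6.89-fold and 5.88-fold. Of these genes, 79 rising and 102 falling ones had a level under 10 CPM, and 2 and 9 had at least 100 CPM. Without ethanol replicate 2 the counts were 78 and 109, and in a fit of the 5 libraries alone they were 171 and 168, so the excess of falling genes did not hold there. Genes with 0 counts in a group have no finite fold change, and the fitted value then depends on the small count that the model adds. There were 16 such genes among the rising and 5 among the falling. Placed at a floor of 3 counts over the group, a bound on their change, they left 70 rising and 72 falling genes at 8-fold or more. The median change of the 8-fold class was 30.4-fold upward as fitted and 17.6-fold with these genes at their bound, and 13.9-fold and 12.9-fold downward.

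Called changes were larger at low than at high CPM, but so was the smallest change called. Genes were binned by the mean of the ethanol and ABA group levels in CPM, which also depends on gene length. Under 1 CPM, 51 genes rose and 73 fell (4.07% of 3048 tested). The smallest change called there was 2.85-fold, against 1.17-fold at 10 to 100 CPM. From 1 to 10 CPM 329 rose and 421 fell (10.1% of 7449), with medians of 2.50-fold and 2.42-fold. From 10 to 100 CPM 709 rose and 589 fell (11.8% of 11030), with medians of 1.495-fold and 1.51-fold. From 100 to 1000 CPM 115 rose and 85 fell (11.1% of 1807), with medians of 1.36-fold and 1.42-fold. Falling genes were thus the more frequent calls below 10 CPM, and rising genes from 10 to 1000 CPM. At 1000 CPM or more only 6 of 79 genes were called, 2 higher and 4 lower, none of them by 2-fold. The share of calls that were at least 2-fold fell from 67.8% of rising and 69.8% of falling genes at 1 to 10 CPM to 7.83% and 18.8% at 100 to 1000 CPM.

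Fitted changes of at least 2-fold that did not pass were mostly at low CPM. Of 1793 genes with such a fitted change, 49.6% were called. Under 1 CPM, 13.8% of 897 were called, and at 1 to 10 CPM 80.8% of 640. Between the controls, ethanol against water, 667 genes had a fitted change of at least 2-fold, of which 579 lay under 1 CPM, 81 at 1 to 10 CPM, 7 at 10 to 100 CPM and 0 above. For ABA against ethanol 229 such genes lay at 10 to 100 CPM, 27 at 100 to 1000 CPM and 0 above.

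**Figure D2:**
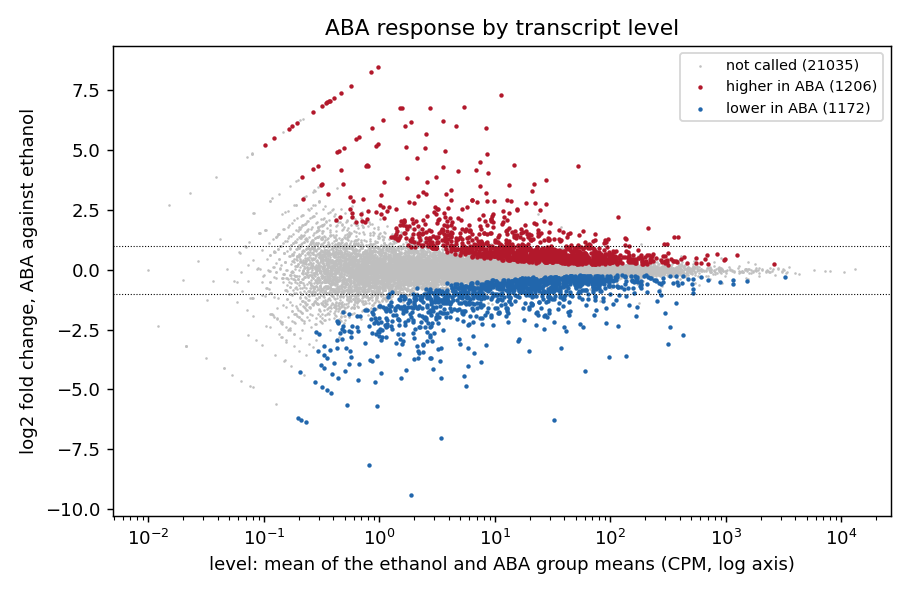
Log2 fold change of ABA against ethanol for each of 23413 genes tested, against its level on a log axis (mean of the ethanol and ABA group means, CPM), with genes called higher in red (1206), called lower in blue (1172) and dotted lines at 2-fold. Calls under 1 CPM have large fold changes (at least 2.85-fold), while at 1000 CPM or more none reaches 2-fold.

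Among genes already expressed in ethanol, the highest fitted rise was that of Lsat_1_v5_gn_7_105640. Its level was 1.60 and 1.10 CPM in the ethanol libraries and 32.1, 26.7 and 24.9 CPM in the ABA libraries, and it was 0.817 to 1.41 CPM in water. The ABA libraries were all far above the 5 control libraries. The log2 fold change against ethanol was 4.38 ± 0.53 (SE; adjusted p = 4.94e-06 in edgeR's quasi-likelihood test). ACC libraries lay at 4.45 to 6.49 CPM and those of CLE12p with ACC at 4.79 to 9.67 CPM, between the controls and ABA. CLE12p libraries were uneven, at 8.76, 1.11 and 6.72 CPM, and with ABA added they stood at 26.0, 40.7 and 28.6 CPM.

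The deepest fall among genes that remained expressed in ABA was that of Lsat_1_v5_gn_2_125581. It stood at 107 and 120.5 CPM in ethanol and at 104 to 119 CPM in water, and at 4.74, 7.70 and 5.77 CPM in the ABA libraries. The groups did not overlap, and the 2 controls lay in the same range. The log2 fold change was -4.22 ± 0.27 (SE; adjusted p = 5.95e-10, quasi-likelihood test), an 18.7-fold fall. With CLE12p alone the level was 122 to 189 CPM, with ACC 165 to 177 CPM and with both 182 to 219 CPM, all above every ethanol and water library. With CLE12p and ABA together it was 6.88, 20.2 and 9.34 CPM.

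Off-to-on genes were those under 0.2 CPM, which is 4.13 to 4.71 counts, in every ethanol library and at 1 CPM or more in every ABA library. On-to-off genes met the reverse. Of 37828 gene models, 14135 were off and 19871 on in ethanol, and 13842 were off and 19579 on in ABA. ABA turned 20 genes on (0.0529% of the models, 0.141% of those off in ethanol) and 6 off (0.0159%, and 0.0302% of those on). By the same limits, water against ethanol, also 3 libraries against 2, gave 0 genes in each direction. In whole seedlings, fewer cells of a type and less RNA per cell cannot be told apart. All 26 genes were among the calls, and all but 2 off-to-on genes among those beyond 2-fold, which the limits on the same libraries nearly fix.

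Most of these genes had a low CPM even when on. The 20 off-to-on genes had group means of 1.30 to 22.5 CPM in ABA, with a median of 3.18 CPM. Only 2 reached 10 CPM and 15 stayed under 5 CPM. Together they held 0.00959% of the counts in the ABA libraries. The 6 on-to-off genes had 1.55 to 6.74 CPM in ethanol, with a median of 1.91 CPM.

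Lsat_1_v5_gn_2_78000 had the highest level of the genes turned on. It had 4 and 2 counts in the ethanol libraries and 509, 525 and 415 in the ABA libraries, or 24.4, 23.6 and 19.5 CPM in ABA. In water it had 0, 0 and 1 counts. The ratio of ABA to ethanol per scaled read was 166 (95% counting interval 76.0 to 453, which covers counting error only; adjusted p = 2.09e-11, quasi-likelihood test). It was on only where ABA was given, at 17.7 to 20.2 CPM in CLE12p with ABA and at most 0.187 CPM in any library of CLE12p, ACC or CLE12p with ACC. For the 2 genes with 0 counts in ethanol, the ABA libraries held 126 and 109 counts in all. Against a floor of 3 counts over the ethanol group they were at least 28.8-fold and 24.96-fold higher, with no allowance for counting error in ABA. The 95% counting intervals of the ratios began at 23.1 and 19.95. Both also had 0 counts in the 3 water libraries and in the 3 libraries of CLE12p alone.

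Lsat_1_v5_gn_1_91241 had the highest level in ethanol of the genes turned off. It had 141 and 157 counts in the ethanol libraries, or 6.82 and 6.66 CPM, and 0, 0 and 3 counts in the ABA libraries. In water it had 152, 161 and 161 counts, so the 5 control libraries lay between 6.66 and 7.55 CPM. The ratio of ethanol to ABA per scaled read was 145 (95% counting interval 49.0 to 705; adjusted p = 1.40e-09, quasi-likelihood test). ACC libraries lay higher, at 9.73 to 13.0 CPM, and CLE12p with ABA libraries had 5, 0 and 1 counts. Of the other 5 genes turned off, 1 had 0 counts in ABA and 167 in ethanol, so that its fall was at least 81.0-fold when 3 counts were put in for the ABA group (65.2 at the lower end of the 95% counting interval), and the rest had 2 to 7 counts over the 3 ABA libraries.

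Water libraries, which took no part in the choice, lay near ethanol for most of these genes. Of the 20 off-to-on genes, 14 were off and 0 on in water. The other 6 were neither off in every water library nor on in every one, with water group means of up to 0.552 CPM. Against water 19 of the 20 were called higher in ABA (7.41% of all genes tested), and all 6 on-to-off genes were on in water and called lower (7.55%). The ABA libraries of this test are those that chose the genes, so only the water libraries are new and the shares over all genes are no fair measure. Without ABA, 1 of the 20 was on in every library of a treatment, but with CLE12p most were not off in every library. With ACC 12 of the 20 were off and 0 on, and with CLE12p and ACC together 13 off and 1 on. With CLE12p 8 were off, 0 on, and 12 neither off nor on in every library. Of the 6 on-to-off genes 5 were on with ACC, 5 with CLE12p and 4 with both, and 0 were off. The 1 off-to-on gene that was on without ABA stood at 2.58, 4.99 and 2.92 CPM with CLE12p and ACC, above its 1.44, 2.34 and 1.92 CPM in ABA, while it had 1 count in each ethanol library.

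**Figure D3:**
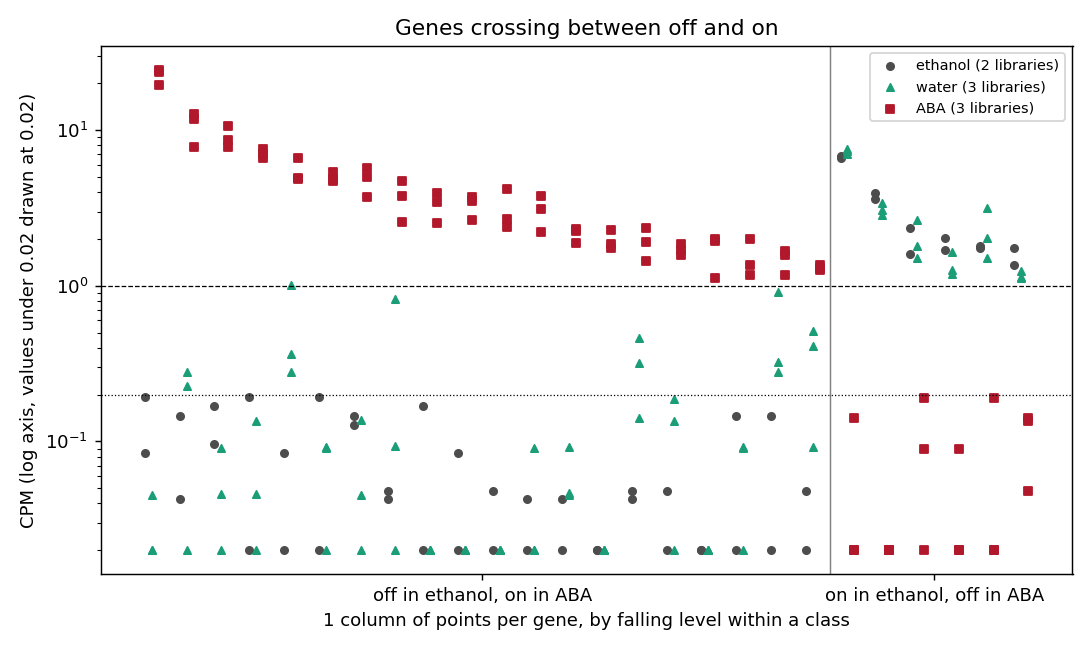
CPM on a log axis in each ethanol (circles), water (triangles) and ABA (squares) library for the 20 genes turned on and the 6 turned off by ABA, ordered by falling level within a class, with the off limit (0.2 CPM, dotted) and the on limit (1 CPM, dashed). Values under 0.02 CPM are drawn at 0.02. Water lies near ethanol for most genes, but 6 of the 20 are neither off nor on in every water library.

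The counts of these classes turn on where the limits are set. The off-to-on gene nearest the off limit had 0.194 CPM in its highest ethanol library, and the nearest gene outside had 0.212 CPM. The lowest ABA library of any member was at 1.13 CPM, and the nearest gene outside at 0.986 CPM. On-to-off genes reached 0.191 CPM in an ABA library, with the nearest outside at 0.270 CPM. With off set at 0.5 CPM there were 35 off-to-on and 39 on-to-off genes, so the excess of genes turned on did not hold. With on set at 0.5 CPM there were 39 and 26, and with off set at 0 counts there were 2 and 1. The groups also differ in size, and both limits are easier to meet in the 2 ethanol libraries than in the 3 ABA libraries. With any 2 of the 3 ABA libraries there were 20 to 24 off-to-on and 7 to 9 on-to-off genes. Without ethanol replicate 1 there were 23 and 14, and without replicate 2 there were 33 and 11.

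Few genes crossed more than 1 class of level. Group means were sorted into classes cut at 0.2, 1, 10, 100 and 1000 CPM. From ethanol to ABA 91.9% of the 37828 gene models stayed in their class, 1491 moved up and 1498 down by 1 class, and 35 moved up and 25 down by more. Between ethanol and water 94.2% stayed, and 1 gene moved by more than 1 class. Of the 35 genes that rose by more than 1 class, 28 went from under 0.2 to between 1 and 10 CPM, 2 from under 0.2 to between 10 and 100 CPM, and 5 from between 0.2 and 1 to between 10 and 100 CPM. Of the 25 that fell by more than 1 class, 19 went from between 1 and 10 to under 0.2 CPM, 5 from between 10 and 100 to between 0.2 and 1 CPM, and 1 from between 100 and 1000 to between 1 and 10 CPM. At the top, 5 genes entered and 8 left the class of 1000 CPM or more, and 74 stayed in it. These moves rest on group means with no test.

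The overall spread of levels was close in both groups. Genes at 1 CPM or more numbered 20297, 20167 and 20218 in the ABA libraries and 20298 and 20401 in the ethanol libraries. The means were 20227 ± 65.5 (SD, n = 3) and 20349.5 ± 72.8 (SD, n = 2), and they did not pass an exact permutation test (two-sided p = 0.2, where 3 against 2 libraries allow 10 splits and no p below 0.1). The SD over genes of log2 CPM was 2.59 ± 0.0062 in ABA and 2.57 ± 0.0189 in ethanol (exact p = 0.5). The 100 genes with the most counts held 20.6% ± 0.224 of the counts in ABA and 20.9% ± 0.00067 in ethanol (exact p = 0.2). None of 9 such measures passed, with Benjamini-Hochberg adjusted exact p from 0.45 to 0.7, and the design cannot reach 0.05.

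Pairs of ethanol and ABA libraries lay further apart than pairs within either group. The median absolute log2 difference per gene was 0.140 to 0.147 for the 3 pairs of ABA libraries and 0.168 for the ethanol pair. It was 0.148 to 0.1996 for the 6 pairs of ethanol with water and 0.216 to 0.225 for the 6 pairs of ethanol with ABA. Replicate pairs of the other groups varied. They lay at 0.146 to 0.151 for ACC, 0.160 to 0.183 for water and 0.161 to 0.203 for CLE12p with ABA. The widest were 0.179 to 0.210 for CLE12p with ACC and 0.184 to 0.237 for CLE12p, so that a CLE12p pair exceeded every pair of ethanol with ABA. The share of genes apart by 2-fold or more was 4.72% to 4.86% between ABA libraries, 5.20% in the ethanol pair, 4.75% to 6.29% between ethanol and water and 9.30% to 9.75% between ethanol and ABA. The spread was smaller at higher levels. For the values by level, the difference was first averaged over pairs for each gene. Over all levels this gave 0.159 for ABA, higher than the single ABA pairs above. The ethanol group has 1 pair and so no average, which makes its values not fully comparable. Between ABA libraries the averaged difference was 0.670 under 1 CPM, 0.276 at 1 to 10 CPM, 0.109 at 10 to 100 CPM and 0.0469 at 1000 CPM or more. At 1000 CPM or more the difference between ABA and ethanol, 0.0916, was below that of the ethanol pair itself, 0.104, and that between water and ethanol, 0.110.

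**Figure D4:**
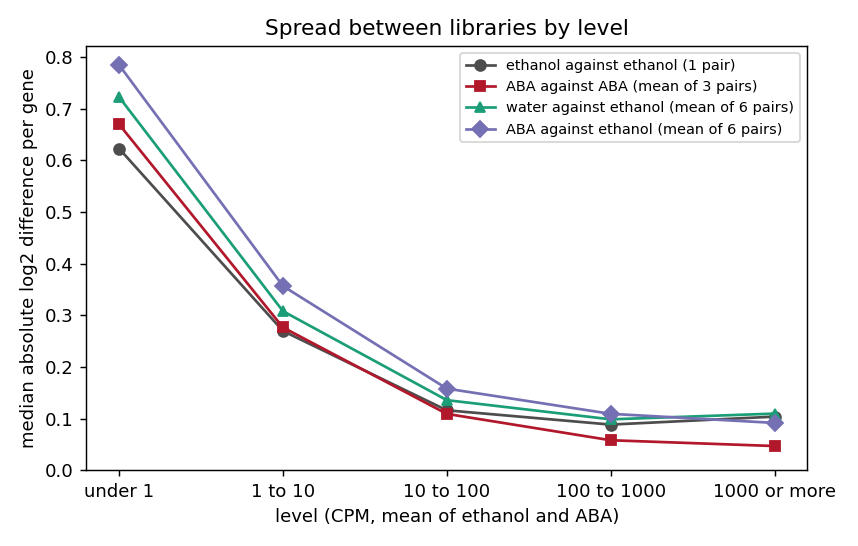
Median absolute log2 difference per gene between libraries, by level, for the pair within ethanol, pairs within ABA, water against ethanol and ABA against ethanol. Values are means over the stated pairs for each gene, except for ethanol, which has 1 pair and no mean. ABA against ethanol is the highest line in the bins below 1000 CPM (0.785 to 0.109), and above that it falls under the ethanol pair (0.0916 against 0.104).

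The called genes shifted a small share of the counts. The genes that rose held 4.68% to 4.69% of the counts in the ethanol libraries and 6.89% to 7.16% in the ABA libraries. Those that fell held 6.14% to 6.24% and 3.92% to 3.95%. These libraries chose the genes, so the figures are a description. In libraries that were not contrasted in that choice, though they entered its estimate of the spread, the rising genes held 4.65% to 4.89% in water, 4.82% to 4.91% in CLE12p and 6.64% to 6.97% in CLE12p with ABA. The falling genes held 6.02% to 6.49%, 6.76% to 7.21% and 4.04% to 4.52%. In ACC the rising genes held 4.67% to 4.85% and the falling genes 7.05% to 7.21%. In CLE12p with ACC these were 4.67% to 4.76% and 7.74% to 8.09%, the highest share of the falling genes in any group. Falls were the more concentrated. Of the summed fall, 72 genes made up 50%, and of the summed rise 129 genes. The largest single gain was 532 CPM and the largest loss 645 CPM.

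Most calls also held against water. All but 1 of the called genes had no overlap with ethanol to begin with, so the addition here is the 3 water libraries. The ABA libraries lay above all 5 ethanol and water libraries for 1113 of the 1206 rising genes (92.3%) and below them for 1107 of the 1172 falling genes (94.5%). Over all genes tested the shares were 11.9% and 11.8%, and among all genes that did not overlap ethanol they were 59.0% upward and 57.4% downward. When ABA was compared with water in the quasi-likelihood test, 82.6% of the rising and 88.0% of the falling genes were called in the same direction, and 3 rising genes had the opposite sign. Both comparisons use the same ABA libraries.

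ABA was also given on top of the CLE12p peptide, and CLE12p with ABA against CLE12p contrasts none of the libraries compared for ABA and ethanol, although all 20 entered the estimate of the spread. Of the 1206 rising genes, 813 (67.4%) were called higher there as well, against 6.24% of all genes tested, and 0 were called lower. Of the 1172 falling genes, 925 (78.9%) were called lower, against 7.93%, and 0 higher. As shares of the calls made with the peptide, these were 55.6% of those higher and 49.8% of those lower. By size class, the share of rising genes called again was lowest under 1.5-fold, at 61.5%, and highest from 4-fold to 8-fold, at 77.3%. For falling genes it was also lowest under 1.5-fold, at 70.7%, and highest from 2-fold to 4-fold, at 85.0%. These differences between classes were not tested. Of the genes beyond 2-fold by test, 115 of 118 and 148 of 153 were called again.

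The rising genes had a median log2 fold change of 0.71 in ABA against ethanol and 0.53 with the peptide, and the falling genes -0.85 and -0.79. The first value of each pair is from the libraries that chose the genes. The difference of both ABA effects passed the test for 0 of 23413 genes in edgeR's quasi-likelihood test, with 1414 at an unadjusted p below 0.05. That does not show equal effects, since large fitted differences did not pass. For Lsat_1_v5_gn_7_105640 the log2 difference was -1.81 (adjusted p = 0.63 in the same test). Across genes the fold changes of both comparisons correlated with Pearson r = 0.66 and Spearman rho = 0.50 over 23413 genes, which are not independent replicates. Of the 20 off-to-on genes, 16 were on in every library of CLE12p with ABA and 4 were neither on nor off in every one. Against CLE12p 18 were called higher (6.24% of all genes tested). Of the 6 on-to-off genes, 3 were off in CLE12p with ABA and 3 were neither off nor on in every library, and all 6 were called lower (7.93%). By the strict limits, CLE12p with ABA against CLE12p gave 10 off-to-on and 6 on-to-off genes, of which 7 and 2 were shared with ABA against ethanol.

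**Figure D5:**
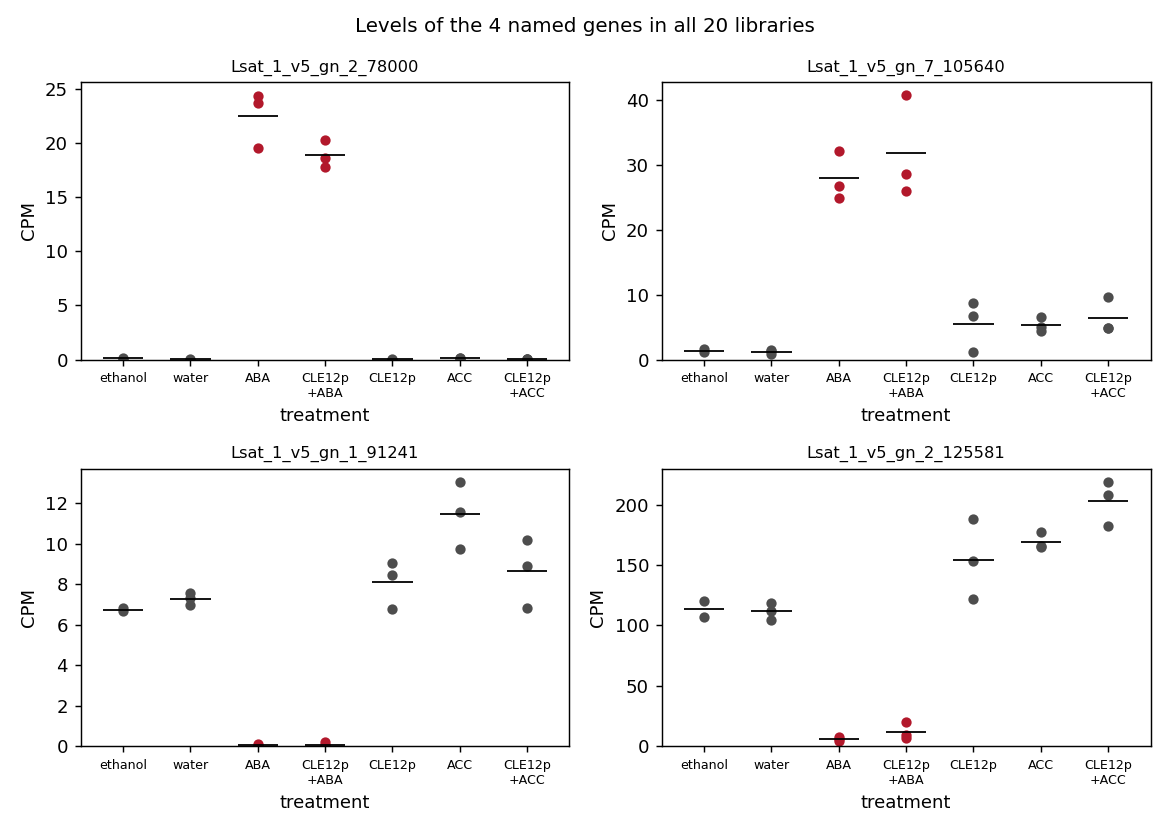
CPM in each of the 20 libraries by treatment for the 4 named genes, with points for libraries, bars for group means and red for treatments that held ABA. Lsat_1_v5_gn_2_78000 is high only with ABA (17.7 to 24.4 CPM), Lsat_1_v5_gn_7_105640 is highest with ABA and intermediate with ACC, and the other 2 genes are lowest in the libraries that held ABA.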

How the data were processed

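The authors deposited raw read counts per gene model, with 1 column per library. Per the submitters' processing notes, reads were handled with STAR 2.7.10a. Counter, strand setting, build and annotation: not given in the sources used here. Overlapping, antisense or near-identical genes can thus share reads, which cannot be told apart. The deposited counts entered edgeR 4.0.16 (R 4.3.3). All 20 libraries were fitted as 7 group means after filterByExpr (minimum of 10 counts) and TMM scaling (factors 0.961 to 1.03), with quasi-likelihood tests, and with glmTreat for changes beyond 2-fold. Calls were made at an adjusted p below 0.05, and the common biological coefficient of variation was 0.117. Standard errors were derived from each gene's fold change (log2) and its F statistic, as the size of the former over the root of the latter. Log2 CPM used a prior count of 2. The steps were run on simulated counts drawn with the spread fitted to these data, which checks the code and not the calls. DESeq2 1.42.0 was an alternative. The ethanol pair and the 3 ABA pairs were further apart than counting allows (chi-square over its degrees of freedom 8.86 and 3.54 to 4.17). None was therefore counted as the same library read again. The values cannot show whether the libraries came from separate batches of seedlings. Columns left unused numbered 0.

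Members, limits and tests were chosen with earlier results of these data known. Named genes were taken by rule. They are the off-to-on gene highest in ABA, the called gene with the highest rise among those at 1 CPM or more in both ethanol libraries, the on-to-off gene highest in ethanol, and the called gene with the deepest fall among those at 1 CPM or more in every ABA library, each with no overlap between the groups. Planned gene lists had 0 members, since no identifier matched. A planned test of the share of counts held by called genes was not used, because the same libraries chose those genes.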

Additional observations from a re-analysis of the deposited data

How the results depend on the processing

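The 4 named genes kept direction and call under all 15 alternatives each. The counts of genes at least 2-fold higher or lower stayed within 1.5 times under every alternative. With water as the control 1768 genes fell, and 55.8% of rising and 62.6% of falling genes were called again with the peptide. With water and ethanol weighted equally 1933 rose and 1831 fell, and those shares were 53.6% and 64.5%. DESeq2 gave 76.3% for the falling genes. Leaving out 1 library at a time gave 655 to 962 rising and 741 to 961 falling genes, 78 to 103 genes higher beyond 2-fold, recurrence of 70.8% to 80.6% and 81.3% to 85.4%, 20 to 33 off-to-on and 7 to 14 on-to-off genes. Where that left 1 ethanol library, it was assumed to vary like the other groups. Off-to-on and on-to-off counts were 35 and 39 with off under 0.5 CPM, 2 and 1 with off at 0 counts, 39 and 26 with on at 0.5 CPM, and 12 and 2 with on at 2 CPM. The causes were not tested. The floor of 3 counts for genes at 0 was chosen after seeing the data. With the replicate block there were 1101 rising and 1087 falling genes, and it changed no call of a named gene. Deviations of ethanol and ABA libraries of the same number correlated with r of 0.0278 and 0.0312, and those of different numbers with -0.0312 to 0.0038. The deviations of the 2 ethanol libraries mirror each other, so these values cannot decide whether libraries of the same number were paired. Under 1 CPM the median standard error of the log2 fold change was 0.703 and the median biological coefficient of variation 0.377, against 0.117 and 0.0864 at 10 to 100 CPM, so smaller changes were not detectable there. The part of depth in this was not tested.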

Other observations

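Called genes were often next to each other in identifier order. Genes tested were ordered by the 2 numbers at the end of the identifier. Of the 1206 rising genes, 210 (17.4%) had a rising gene as a direct neighbour, while 9.95% of all genes tested had 1. Of the 1172 falling genes, 245 (20.9%) had a falling neighbour, against 9.63% of all genes tested. The longest unbroken runs were 5 rising and 6 falling genes. Whether identifier order follows genome position was not checked here, and reads of near-identical copies cannot be told apart, so the part of either in these counts was not tested. By the first of the 2 numbers, from 1 to 9, the share of genes called ran from 9.09% to 11.1%. It was 4.10% for the 195 genes numbered 0.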
